A study of Mus musculus with 8 samples.

Results

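The mitochondrial respiratory chain and the ATP synthase were followed through 78 nuclear genes that encode their structural subunits. The genes were taken by symbol (symbols of the Nduf, Sdh, Uqcr, Cox and Atp5 subunit families), and no measured value enters that rule. Earlier results of these data were known when the rule was set. The set holds 78 of the 19411 genes that a single-gene probe set represents on the arrays. Cox8c, Cox6b2 and Cox7b2, forms of complex IV subunits made in male germ cells, match these symbols and were taken out by name, so the 78 leave out germ cell forms that could differ from the rest; they are given apart. By complex these were 33 genes of complex I, 4 of complex II, 8 of complex III, 16 of complex IV and 17 of the ATP synthase. Ndufa4 is named for complex I but is now known as a subunit of complex IV, and it was counted there together with its paralogue Ndufa4l2 and with Cox7a2l, which joins complexes III and IV. Cox7c and Ndufb4 were not among the 78, because their probe sets are shared with the copies Gm12338 and Ndufb4b. Ndufs5 is represented by a probe set of its own, although 1 further probe set is shared with Ndufs5-ps and was left out. Subunits encoded by mitochondrial DNA are not analysed here.

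RNA from 8 male mouse samples of the strain C57/Bl6 was hybridised to Affymetrix gene arrays, with 1 array per sample. The 6 sperm samples, taken from the caudal epididymis, comprised 2 of males on a low protein diet, 1 under caloric restriction and 3 on the control diet. The 2 samples of epididymal tissue comprised 1 low protein and 1 control sample, and the labels do not say which region of the organ was used for them. The study asked how a male's diet affects the RNA in its sperm. Low protein and control males were kept on their diet up to an age of 9 to 12 weeks; no age was found for the caloric restriction sample. Sperm had been collected from punctured tissue, washed, and screened for purity by microscopy and by PCR for Actb and Myh11. Nothing in the labels says that replicates came from separate animals, or how many animals a sample held, so the p-values below reflect only how far these samples spread, and that spread may be technical.

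In the respiratory chain, complexes I and II pass electrons from NADH and succinate to ubiquinone, complex III passes them on to cytochrome c, and complex IV reduces oxygen with them. Complexes I, III and IV pump protons across the inner mitochondrial membrane, and the ATP synthase uses the return flow to make ATP. In sperm these complexes sit in the mitochondrial sheath of the midpiece, transcription has largely stopped by the time sperm reach the epididymis, and the RNA in sperm is what remains from earlier stages or was taken up later.

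Values are log2 intensities. A gene's level can be compared between arrays, but not with the level of another gene, because each probe set has its own response. Of the 78 genes, 75 passed a filter that left out the lowest 30% of genes by mean level. Cox7a1 and Cox8b, the muscle isoforms of their subunits, and Ndufb2 of complex I did not pass it and were not tested. On every array each of these 3 genes lay between 5.0 and 5.82. A total of 13587 genes were tested, and a difference was called at an adjusted p under 0.05 from limma. Array medians over all probe sets ran from 6.08 to 6.17, so a difference in total RNA between samples is not visible. Low protein sperm replicate 2 stood apart: its correlation with the other sperm arrays over tested genes ran from 0.71 to 0.86, against 0.85 to 0.98 among the others. Marker genes of the cell types were compared between sperm and epididymis. Over all genes tested, 30.1% were called lower in sperm and 18.4% higher. All 12 smooth muscle markers were called lower in sperm. Of 18 tested epithelium markers, 15 were called lower and 1 higher. Of 9 tested leukocyte markers, 1 was called higher and 0 lower. No count is read over the 18 sperm and late spermatid markers, because a gene can pass the filter through sperm. Some sperm markers lay below the level of the filter in epididymis, where background limits a level. Among them was Spem1, at 5.16 in low protein and 5.44 in control epididymis.

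Most of the respiratory chain genes were lower in sperm than in epididymal tissue. Of the 75 tested, 45 fell, 1 rose and 29 were not called, where 30.1% of all genes tested fell and 18.4% rose. The median change was -0.76 on the log2 scale, with a range of -2.22 to 0.76, and over all genes the median was -0.08. All 6 sperm values lay below both epididymis values for 54 of the 75 genes and above both for 5, where 35.6% and 24.8% of all genes did so. In these bulk samples, fewer cells of a type and less RNA per cell cannot be told apart. Markers of some epididymal cell types moved with this difference. The summed signal of 22 measured epithelium markers was 20 to 53.3% of its epididymis mean in the 6 sperm arrays, that of 12 smooth muscle markers was 7.49 to 14.6%, that of 9 fibroblast and matrix markers 29.6 to 56.8%, and that of 7 endothelium markers 52.1 to 73.9%. Leukocyte markers did not share this direction, at 85.4 to 183%, with 1 of 9 tested called higher and 0 lower, and 2 measured erythrocyte markers were at 105 to 152%. On the sperm arrays the endothelium markers averaged 5.46 to 5.89 and the erythrocyte markers 5.68 to 6.29. These levels lie near the filter level of 5.69, where background limits a level. The part of the marker differences in the fall of the respiratory chain genes was not tested.

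**Figure D1:**
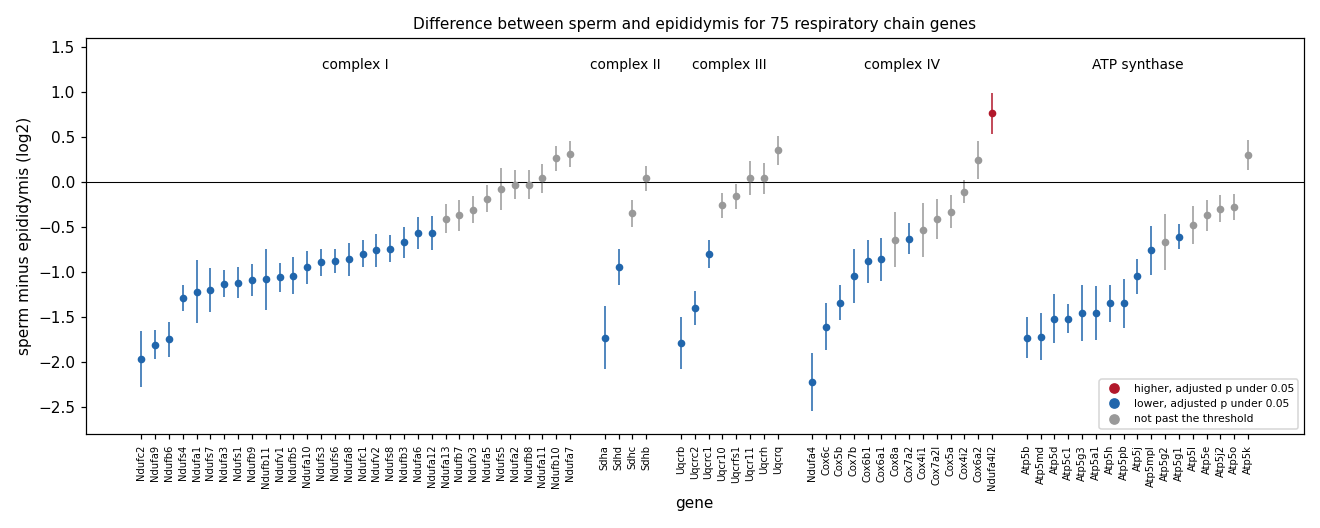
Log2 difference between sperm and epididymis for each of the 75 tested genes, grouped by complex, with moderated standard errors from limma. Points below 0 are lower in sperm. Ndufa4 of complex IV is the lowest point at -2.22 and Ndufa4l2 of the same complex the highest at 0.76.

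The start regions of some of these genes hold binding letters of factors known to act on respiratory chain genes, among them NRF1 and the ETS family factor GABP. RefSeq promoter windows of GRCm38.p6, from 250 bases before to 50 after the start site, were matched for 64 of the 78 genes and gave 69 windows. The NRF1-like letters, GCGC and GCGC with any 2 bases between them, were in 26.1% of these windows, against 11.6% of the windows of all genes tested. The ETS-like letters CCGGAAG were in 24.6% against 15%, and the YY1-like letters AAGATGGCG in 10.1% against 2.52%. Both strands were searched, and at least 1 of the 3 was found in 52.2% against 26.1%. Among windows of the genes that fell in sperm, 51.2% held at least 1, and among windows of the other respiratory chain genes 53.6%. By motif, the NRF1-like letters were in 26.8% against 25%, the ETS-like in 22% against 28.6%, and the YY1-like in 14.6% (6 of 41 windows) against 3.57% (1 of 28). These splits were not tested. A match is a description of the letters and not a site. Windows were not matched for 14 genes, among them Ndufa4l2, Uqcrb and Cox6c.

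To show these letters in both kinds of gene, 6 stretches of 100 bases that end just before the start site are printed 5′ to 3′ on the gene's strand, which is the minus strand for all 6, with the NRF1-like and ETS-like letters in capitals (CTTCCGG is the ETS-like motif read from the other strand). Sdha (flavoprotein of complex II, chr13:74350241-74350340), Sdhd (membrane anchor of complex II, chr9:50603850-50603949), Ndufs6 (complex I, chr13:73328483-73328582) and Cox6b1 (complex IV, chr7:30626115-30626214) fell in sperm. Atp5k (ATP synthase, chr5:108434400-108434499) and Uqcrh (complex III, chr4:116075071-116075170) were not called.
Sdha: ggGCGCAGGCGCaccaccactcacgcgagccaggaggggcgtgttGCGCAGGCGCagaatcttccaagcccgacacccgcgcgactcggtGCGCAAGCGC
Sdhd: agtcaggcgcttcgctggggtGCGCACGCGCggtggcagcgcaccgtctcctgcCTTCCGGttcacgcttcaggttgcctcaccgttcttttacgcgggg
Ndufs6: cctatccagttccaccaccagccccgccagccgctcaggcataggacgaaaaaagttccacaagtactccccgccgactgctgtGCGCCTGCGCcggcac
Cox6b1: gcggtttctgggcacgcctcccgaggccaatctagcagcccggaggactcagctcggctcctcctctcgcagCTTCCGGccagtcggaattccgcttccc
Atp5k: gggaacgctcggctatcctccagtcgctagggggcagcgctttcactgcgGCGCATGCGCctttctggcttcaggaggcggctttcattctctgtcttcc
Uqcrh: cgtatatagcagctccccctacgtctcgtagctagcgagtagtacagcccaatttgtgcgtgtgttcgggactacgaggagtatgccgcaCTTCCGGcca
Sdha carries the NRF1-like letters 3 times in this stretch, and Sdhd carries both motifs. Atp5k and Uqcrh, which were not called between sperm and epididymis, carry the same letters as genes that fell.

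Complex I takes electrons from NADH through a flavin and a chain of iron-sulfur clusters in its matrix arm. Its 6 measured core subunits, most of which carry these centres, all fell in sperm, with a median of -0.97. Their log2 changes were -1.20 for Ndufs7, -1.12 for Ndufs1, -1.06 for Ndufv1, -0.89 for Ndufs3, -0.76 for Ndufv2 and -0.74 for Ndufs8. Ndufv1, which binds NADH and the flavin, stood at 7.72 and 7.32 in low protein sperm, 7.74 in caloric restriction sperm and 7.69, 7.79 and 7.55 in control sperm, against 8.67 in low protein and 8.65 in control epididymis. Every sperm value for Ndufv1 was below both epididymis values.

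The accessory subunits, which surround this core and take part in its assembly and stability, were more mixed. Among 12 tested genes of the Ndufa series, 7 fell and 5 were not called, where 30.1% of all genes fell. The counts were 5 of 8 for the Ndufb series, and 4 of 6 for the remaining Ndufc, Ndufs and Ndufv genes. Ndufa9, an accessory subunit near the ubiquinone site, had 6.70 and 6.46 in low protein sperm, 6.94 in caloric restriction sperm and 6.83, 7.07 and 6.83 in control sperm, against 8.56 in both epididymis samples. No sperm array came near the epididymis level, and the change was -1.81 ± 0.16 (SE, tissue and diet fitted on all 8 arrays, limma adjusted p 8.78e-05).

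Ndufc2, a small subunit of the membrane arm, had 8.15 and 7.01 in low protein sperm, 8.13 in caloric restriction sperm and 8.09, 8.60 and 8.50 in control sperm, against 9.93 in low protein and 10.02 in control epididymis. It fell by 1.97 ± 0.31 (SE, adjusted p 0.0012), with low protein sperm replicate 2 lowest. Ndufb6, also of the membrane arm, fell by 1.75 ± 0.19 (adjusted p 0.000213).

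Ndufs6, an accessory subunit needed late in assembly, varied least among the sperm arrays. It had 7.56 and 7.60 in low protein sperm, 7.59 in caloric restriction sperm and 7.60, 7.62 and 7.68 in control sperm, against 8.52 in low protein and 8.45 in control epididymis. Its 6 sperm values had an SD of 0.04, and it fell by 0.88 ± 0.13 (adjusted p 0.000941). Ndufa7, another accessory subunit, had 8.01 and 7.92 in low protein sperm, 7.97 in caloric restriction sperm and 8.08, 8.00 and 7.94 in control sperm, against 7.77 in low protein and 7.58 in control epididymis. Every sperm value was above both epididymis values, and the difference of 0.31 ± 0.14 did not pass the test (adjusted p 0.0901).

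Complex II, or succinate dehydrogenase, also works in the tricarboxylic acid cycle. Its 4 subunits did not move as 1 group. Sdha, the flavoprotein that oxidises succinate, had 8.57 and 7.30 in low protein sperm, 8.33 in caloric restriction sperm and 8.53, 9.00 and 8.91 in control sperm, against 10.19 in low protein and 10.08 in control epididymis. It fell by 1.73 ± 0.35 (adjusted p 0.00378). Sdhd, a membrane anchor, fell by 0.94 ± 0.20 (adjusted p 0.00568). Sdhb, the iron-sulfur subunit that takes electrons on from Sdha, had 7.56 and 7.45 in low protein sperm, 7.45 in caloric restriction sperm and 7.43, 7.35 and 7.23 in control sperm, against 7.40 in low protein and 7.34 in control epididymis. The Sdhb groups overlapped, and the difference was 0.04 ± 0.14 (adjusted p 0.804). Sdhc, the other membrane anchor, differed by -0.35 and did not pass the test (adjusted p 0.073), and its difference was 0.04 after quantile normalization and 0.10 after cyclic loess.

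In complex III, 3 of 8 genes fell (37.5%, near the 30.1% of all genes) and the median was -0.21. Uqcrb, a small subunit on the matrix side of the complex, had 8.38 and 7.49 in low protein sperm, 8.10 in caloric restriction sperm and 8.19, 8.80 and 8.03 in control sperm, against 9.96 in low protein and 9.93 in control epididymis. It fell by 1.79 ± 0.29 (adjusted p 0.00128). The core subunits Uqcrc2 and Uqcrc1 changed by -1.40 and -0.80. Uqcrfs1, the Rieske iron-sulfur protein that hands electrons to cytochrome c1, had 7.32 and 7.57 in low protein sperm, 7.81 in caloric restriction sperm and 7.28, 7.28 and 7.41 in control sperm, against 7.56 in low protein and 7.53 in control epididymis. These values overlapped, and the difference of -0.16 ± 0.14 did not pass the test (adjusted p 0.353). It was 0.08 after quantile normalization and 0.12 after cyclic loess.

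Complex IV, cytochrome c oxidase, holds nuclear subunits around a core made from mitochondrial DNA. Of its 14 tested genes, 7 fell and 1 rose, where 30.1% of all genes fell and 18.4% rose, with a median of -0.64. Ndufa4, a subunit of this complex despite its name, had the largest fall among the 75 genes. It stood at 8.30 and 7.10 in low protein sperm, 8.05 in caloric restriction sperm and 8.38, 8.89 and 8.44 in control sperm, against 10.31 in low protein and 10.44 in control epididymis. It fell by 2.22 ± 0.32 (adjusted p 0.000812). Cox6c fell by 1.61 ± 0.26 (adjusted p 0.00135). Cox4i1 and Cox8a, the widely expressed forms of their subunits, had differences of -0.53 (adjusted p 0.165) and -0.64 (adjusted p 0.106), which did not pass the test.

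Ndufa4l2, the paralogue of Ndufa4, was the single gene of the 75 that rose. It had 6.32 and 7.07 in low protein sperm, 6.47 in caloric restriction sperm and 6.40, 6.20 and 6.16 in control sperm, against 5.59 in low protein and 5.82 in control epididymis. Its highest value was in low protein sperm replicate 2. Both epididymis values lie near the filter level of 5.69, where background signal limits a level. The rise was 0.76 ± 0.23 (adjusted p 0.0269). It did not pass the test without the low protein epididymis array (0.44, adjusted p 0.324), without control sperm replicate 1 (0.74, adjusted p 0.0634), with the control diet arrays alone (0.44, adjusted p 0.0858) or after quantile normalization (0.73, adjusted p 0.0586). Cox4i2, the form of subunit 4 found in lung, had a difference of -0.11, and Cox6a2, the heart and muscle form, one of 0.24. Neither passed the test.

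The ATP synthase had the lowest median of the 5 complexes, at -1.05, with 11 of 17 genes lower, where 30.1% of all genes were. In the F1 head and central stalk, where ATP is made, 4 of 5 genes fell with a median of -1.52. Atp5b, the catalytic beta subunit, had 9.03 and 8.29 in low protein sperm, 9.21 in caloric restriction sperm and 8.99, 9.32 and 9.24 in control sperm, against 10.68 in low protein and 10.67 in control epididymis. It fell by 1.73 ± 0.23 (adjusted p 0.000514). Atp5a1, the alpha subunit, fell by 1.46 ± 0.30 (adjusted p 0.00456). Atp5c1, the gamma subunit that turns inside the head, fell by 1.52 ± 0.16.

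In the peripheral stalk, which holds the head still, 3 of 4 genes fell, where 30.1% of all genes did. Atp5g1, Atp5g2 and Atp5g3 encode the same mature subunit of the rotating ring, and 2 of these 3 fell. Atp5g3 fell by 1.46, while Atp5g2 differed by -0.67 and did not pass the test (adjusted p 0.0979). Among the 5 small membrane subunits, 2 fell (40%, near the 30.1% of all genes). Atp5md fell by 1.72, and Atp5k, the e subunit, differed by 0.30 without passing the test (adjusted p 0.168).

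**Figure D2:**
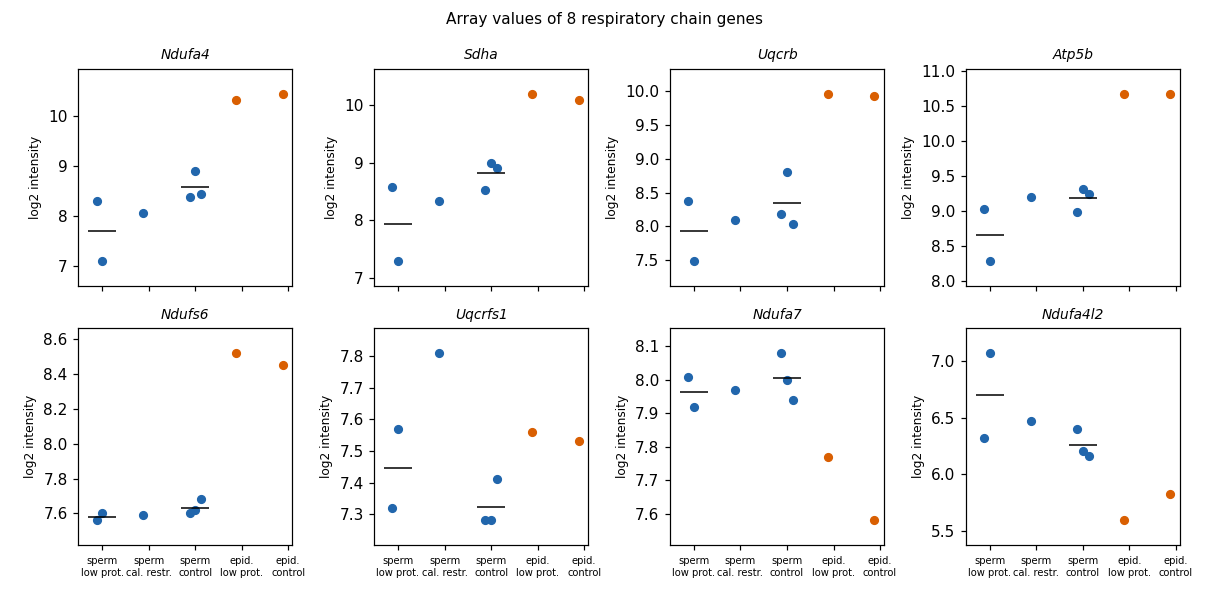
Log2 intensity on each array for 8 of the genes, with sperm to the left of epididymis and the diets marked. Ndufa4, Sdha, Uqcrb, Atp5b and Ndufs6 are lower on every sperm array than in epididymis, Uqcrfs1 overlaps, and Ndufa7 and Ndufa4l2 are higher on every sperm array.

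The size of the difference depended on how arrays were scaled to each other. After cyclic loess the median over all genes was 0.05 for sperm against epididymis, where it had been -0.08 on the deposited values, and 34 of the 75 genes fell and 6 rose, with a median of -0.34, where 24.9% of all genes fell and 25.7% rose. Quantile normalization gave 31 lower and 4 higher, again with a median of -0.34, where 20.7% of all genes fell and 18.6% rose. Without the low protein epididymis array, which leaves 1 epididymis array, 26 of the 75 fell, where 12.5% of all genes fell and 7.76% rose. In every alternative tried, including the omission of each array in turn, 21 genes were lower in sperm. These were Atp5b, Atp5c1, Atp5d, Atp5h, Atp5md, Cox5b, Cox6c, Ndufa3, Ndufa4, Ndufa9, Ndufb6, Ndufb9, Ndufc1, Ndufc2, Ndufs1, Ndufs4, Ndufs6, Ndufs8, Ndufv1, Uqcrb and Uqcrc2. The share of all genes that fell in every alternative was not computed, so the 21 are listed without a background. Ndufc1 is among the 21, although its values overlapped. Caloric restriction sperm had 7.98 for Ndufc1, against 7.96 in low protein and 8.01 in control epididymis. Of 16 genes with more than 1 probe set, 15 had probe sets that all differed in the same direction. The exception was Ndufa11, an accessory subunit of complex I, whose probe sets differed by 0.05 and -0.36. The sizes were less alike, as for Atp5pb of the peripheral stalk at -1.30 and -0.49.

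Genes that work beside the respiratory chain were listed for comparison, and their counts are read against the 30.1% of all genes that fell and the 18.4% that rose. Of 18 tested genes of the tricarboxylic acid cycle, which supplies NADH and succinate, 17 fell and 0 rose in sperm, with a median of -0.92. The unadjusted test called 0 of them higher as well. Dld and Pdha1, of the dehydrogenase complexes that feed and drive the cycle, changed by -1.72 and -1.67. Of 33 assembly factors, 13 fell and 1 rose (median -0.33), and the riser was Uqcc2, an assembly factor of complex III, at 1.59. The Uqcc2 values of 5.76 in low protein and 5.92 in control epididymis lie near the filter level of 5.69, where background limits a level. Of 70 mitochondrial ribosomal proteins, 25 fell (35.7%, near the share of all genes) and 6 rose (median -0.27), and of 21 genes of mitochondrial import 9 fell and 2 rose (median -0.32). Of 17 genes of mitochondrial DNA and biogenesis, 7 fell and 1 rose (median -0.08). Of 11 electron transport genes that the subunit symbols do not cover, 6 fell and 1 rose. Cycs, the somatic cytochrome c, changed by -1.10 and Cyc1, the cytochrome c1 of complex III, by -1.17, while Gpd2, the mitochondrial glycerol phosphate dehydrogenase, rose by 1.68. Outside the mitochondrion, 11 of 61 cytosolic ribosomal protein genes fell (18%) and 7 rose (11.5%), both below the shares of all genes (median -0.30), and 27 of 40 genes with proteasome symbols fell and 2 rose (median -0.71).

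Germ cell forms of complex IV subunits were higher in sperm. Cox8c, Cox6b2 and Cox7b2, left out of the 78 by name, are the germ cell forms of complex IV subunits. Cox8c had 8.30 and 8.61 in low protein sperm, 9.53 in caloric restriction sperm and 7.78, 7.99 and 7.64 in control sperm, against 6.40 in low protein and 6.16 in control epididymis. It rose by 1.84 ± 0.18 (adjusted p 0.000118). Cox6b2 rose by 1.66 ± 0.19 (adjusted p 0.000276). Its epididymis values, 5.66 in low protein and 5.81 in control, lie near the filter level of 5.69, where background signal limits a level. Cox7b2 had 6.02 and 6.27 in low protein sperm, 7.23 in caloric restriction sperm and 5.42, 5.83 and 5.14 in control sperm, against 4.68 in low protein and 4.97 in control epididymis. Both epididymis values and 2 of the control sperm values of Cox7b2 lie below the filter level of 5.69, which it passed through the restricted diet arrays, so no fold is read for it. The list of 10 germ cell variants they come from also holds Ldhc and Pgk2, and 6 of the 10 passed the filter. No count over them is read, because a gene can pass through the group where it is high. Ldhc, the lactate dehydrogenase of germ cells, was higher on every sperm array than in epididymis. Its epididymis values of 5.55 in low protein and 5.69 in control lie at or below the filter level, so no fold is read for it. For the same reason no count is read over the 13 tested genes of the sperm mitochondrial sheath. Among them, Spata19 had 4.46 in low protein and 4.87 in control epididymis, and Gk2 had 4.90 and 4.98. These values lie below the filter level, which both genes passed through sperm. Smcp, a protein of the outer mitochondrial membrane in the sheath, rose by 2.90 and Spata18 by 4.07.

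Diet was compared within sperm. Between low protein and control sperm, 0 of the 75 genes were called by limma, and the background was 0% of all genes in either direction. At an unadjusted p under 0.05, 10 genes were lower and 0 higher, where 13.1% and 11.9% of all genes were. The median change was -0.17, against -0.06 over all genes. Both low protein values lay below all 3 control values for 12 genes and above them for 9, where 22.4% and 18.8% of all genes did so.

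Ndufa1, a small complex I subunit that the assembled enzyme needs, had the largest difference. It stood at 8.19 and 6.95 in low protein sperm, against 8.41, 9.05 and 8.62 in control sperm. Both low protein values were below the controls, with replicate 2 far below replicate 1. The difference was -1.12 ± 0.35 and did not pass the test (adjusted p 0.14). Sdha differed by -0.88 ± 0.34 (adjusted p 0.179) and Ndufa4 by -0.87 ± 0.34 (adjusted p 0.177). In both genes low protein sperm replicate 2 was the lowest sperm array, and low protein replicate 1, at 8.57 for Sdha and 8.30 for Ndufa4, lay close to the controls. In the upward direction, Ndufa4l2 differed by 0.44 ± 0.24 (adjusted p 0.276), Ndufa13 by 0.41 ± 0.18 (adjusted p 0.201) and Atp5k by 0.36 ± 0.18 (adjusted p 0.247).

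The lower values lay mainly in 1 of the 2 low protein arrays. In low protein sperm replicate 2, the median of the 75 genes was -0.36 relative to the control mean, with 45 below all 3 controls, 15 above them and 15 within their range. Over all genes, 42.5% were below and 39.7% above. In low protein sperm replicate 1 the median was -0.01, with 14 below, 16 above and 45 within, where 36.9% of all genes were below and 22.7% above. For scale, 6 of the 75 genes lay below all 3 control sperm values and 62 above in low protein epididymis, where 37.4% and 43.8% of all genes did so, and 6 and 59 did in control epididymis, where 37.5% and 45.5% did. Left without replicate 1, the comparison called 35 of the 75 genes (32 lower and 3 higher), but it then called 22.9% of all genes lower and 15% higher, with a median of -0.36. Left without replicate 2, it called 0 genes and the median was -0.01. After cyclic loess the median over the 75 genes was 0.06 with both replicates kept.

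The genes lowest in low protein sperm replicate 2 were spread over the complexes. After Ndufa1, at -1.74 relative to the control mean, came Sdha, Ndufa4, Ndufc2, Atp5g3, Ndufb11, Atp5g2 and Atp5a1. Among the 6 sperm arrays the SD of a gene had a median of 0.26 over the 75 genes, and the highest were Ndufa1 (0.71), Sdha (0.61) and Ndufa4 (0.60). Without low protein replicate 2 that median was 0.18. Over all genes tested the medians were 0.25 and 0.21.

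The same array differed in its marker genes. Epithelium markers summed to 35.1 and 20% of the epididymis mean in low protein sperm replicates 1 and 2, and to 36% in caloric restriction sperm, against 41.4, 53.3 and 50.9% in control sperm. Smooth muscle markers summed to 9.68 and 7.49% in low protein sperm, with 11.4% in caloric restriction sperm, against 14.2, 14.6 and 12.3% in control sperm. The 9 fibroblast and matrix markers summed to 38.2 and 29.6% in low protein sperm, with 51.4% in caloric restriction sperm, against 37.5, 39.7 and 56.8% in control sperm. Sperm markers averaged 9.99 and 10.36 in low protein sperm, with 10.36 in caloric restriction sperm, against 9.58, 9.41 and 9.25 in control sperm. Among the sperm arrays, low protein replicate 2 had the lowest summed signal of these 3 somatic lists and shared the highest mean of the sperm markers with caloric restriction. Other somatic lists did not follow: on this array endothelium markers (73.9%) and erythrocyte markers (152%) were the highest of the 6 sperm arrays, and leukocyte markers were at 145%, within the range of 85.4 to 183% over the 6. The endothelium and erythrocyte lists averaged near the filter level, where background limits a level. The part of the marker differences in the respiratory chain values was not tested.

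**Figure D3:**
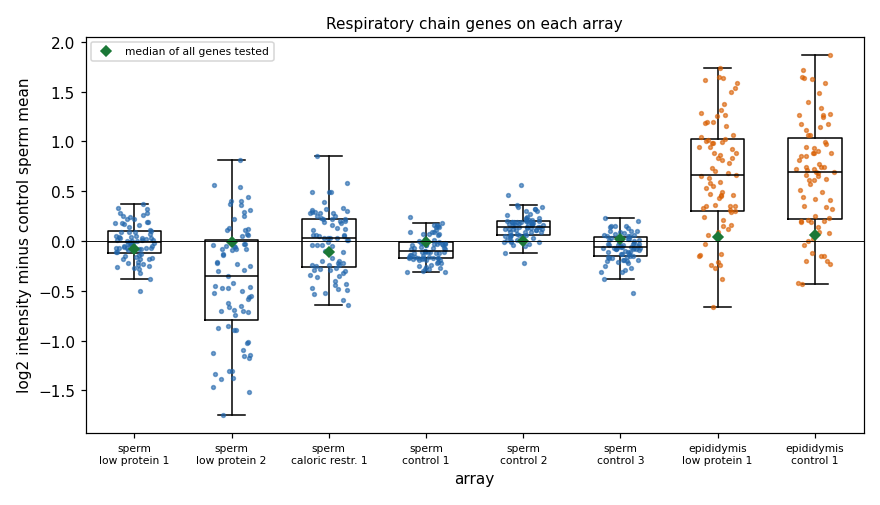
Distribution of the 75 tested genes on each array, as the log2 difference from the mean of the 3 control sperm arrays. Low protein sperm replicate 2 has a median of -0.36, low protein replicate 1 of -0.01 and caloric restriction sperm of 0.02, and the medians in epididymis are 0.67 for low protein and 0.69 for control.

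Caloric restriction was represented by a single sperm array, whose spread was taken from the other sperm groups. Against control sperm, 0 of the 75 genes were called by limma, where 5.53% of all genes were called higher and 0.0368% lower. The median was 0.02, against -0.11 over all genes, and 24 genes lay below all 3 controls and 24 above, where 45.8% and 27.3% of all genes did so. At an unadjusted p under 0.05, 2 were higher and 1 lower, where 12.4% and 4.17% of all genes were. Ndufc1, a small membrane subunit of complex I, had 7.98 in caloric restriction sperm, against 7.27, 7.18 and 6.93 in control sperm. It was above every control, by 0.85 ± 0.22, and did not pass the test (adjusted p 0.069). It passed after cyclic loess (0.97, adjusted p 0.0314), a setting for which no share of all genes is given here. Without either one of the low protein arrays the difference was 0.85. A second probe set of Ndufc1 differed by 0.49 between caloric restriction and control sperm. Ndufs5 differed by 0.58 and Cox5a by 0.50. Downward, Ndufb11 differed by -0.65, Ndufa10 by -0.59 ± 0.23 (adjusted p 0.251) and Atp5g3 by -0.53, and none of these 5 passed the test.

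Cox8c and Cox6b2 were higher on the caloric restriction array than on any other sperm array. Against control sperm the difference was 1.73 ± 0.23 for Cox8c (adjusted p 0.00545) and 1.49 ± 0.20 for Cox6b2 (adjusted p 0.0055), with the spread taken from the other sperm groups, so these values describe 1 array. In low protein sperm the differences were 0.66 for Cox8c (adjusted p 0.122) and 0.62 for Cox6b2 (adjusted p 0.103), which did not pass the test. Both comparisons use the same 3 control arrays, and sperm marker genes were higher in all 3 restricted samples than in control sperm, as given above. Their part in these values was not tested.

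With low protein and caloric restriction sperm pooled as 1 group against control sperm, 0 of the 75 genes were called by limma, where 2.72% of all genes were called higher and 0.0294% lower. At an unadjusted p under 0.05, 7 genes were lower and 0 higher, where 14% and 12.5% of all genes were. Ndufa1 differed by -0.87, Ndufa4 by -0.75 and Sdha by -0.74, and in the upward direction Ndufc1 and Ndufa4l2 both differed by 0.37. None of these passed the test, and 1 gene of the 75 was called lower without low protein replicate 1, where 3.46% of all genes were. Between low protein and caloric restriction sperm, 0 of the 75 were called by limma, and the background was 0% of all genes. At an unadjusted p under 0.05, 5 were lower and 0 higher, where 7.37% and 2.31% of all genes were. Both low protein values lay below the caloric restriction value for 26 genes and above it for 10, where 30.1% and 29.9% of all genes did so. Ndufs5, an accessory subunit of complex I, had 6.96 and 6.28 in low protein sperm, against 7.56 in caloric restriction sperm. Both were lower, and the difference of -0.94 ± 0.33 did not pass the test (adjusted p 0.386). With a low protein array left out, this comparison sets 1 array against 1. Neither side is then replicated, and the spread comes from control sperm alone. Without low protein replicate 1, 17 of the 75 were lower, where 10.8% of all genes were called lower and 3.55% higher.

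In epididymal tissue, diet was compared between 1 low protein and 1 control array, and this difference is given as values that were not tested on their own. The 75 genes had a median difference of 0.01. They ranged from -0.42 for Ndufa12, with 7.94 in low protein and 8.36 in control epididymis, to 0.26 for Atp5o, with 8.31 in low protein and 8.05 in control epididymis. A difference of at least 0.25 was seen upward in 1 gene and downward in 3, where 7.41% and 8.93% of all genes had one. A test of whether the low protein difference in sperm differed from that in epididymis called 0 of the 75 genes, and the background was 0% of all genes. At an unadjusted p under 0.05 it again called 0 of them, where 4.06% of all genes were higher and 0.434% lower. The smallest adjusted p among them was 0.875, and the median was -0.24. Without low protein sperm replicate 1 it called 14 of the 75 lower and 1 higher, where it called 7.87% of all genes lower and 4.2% higher.

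**Figure D4:**
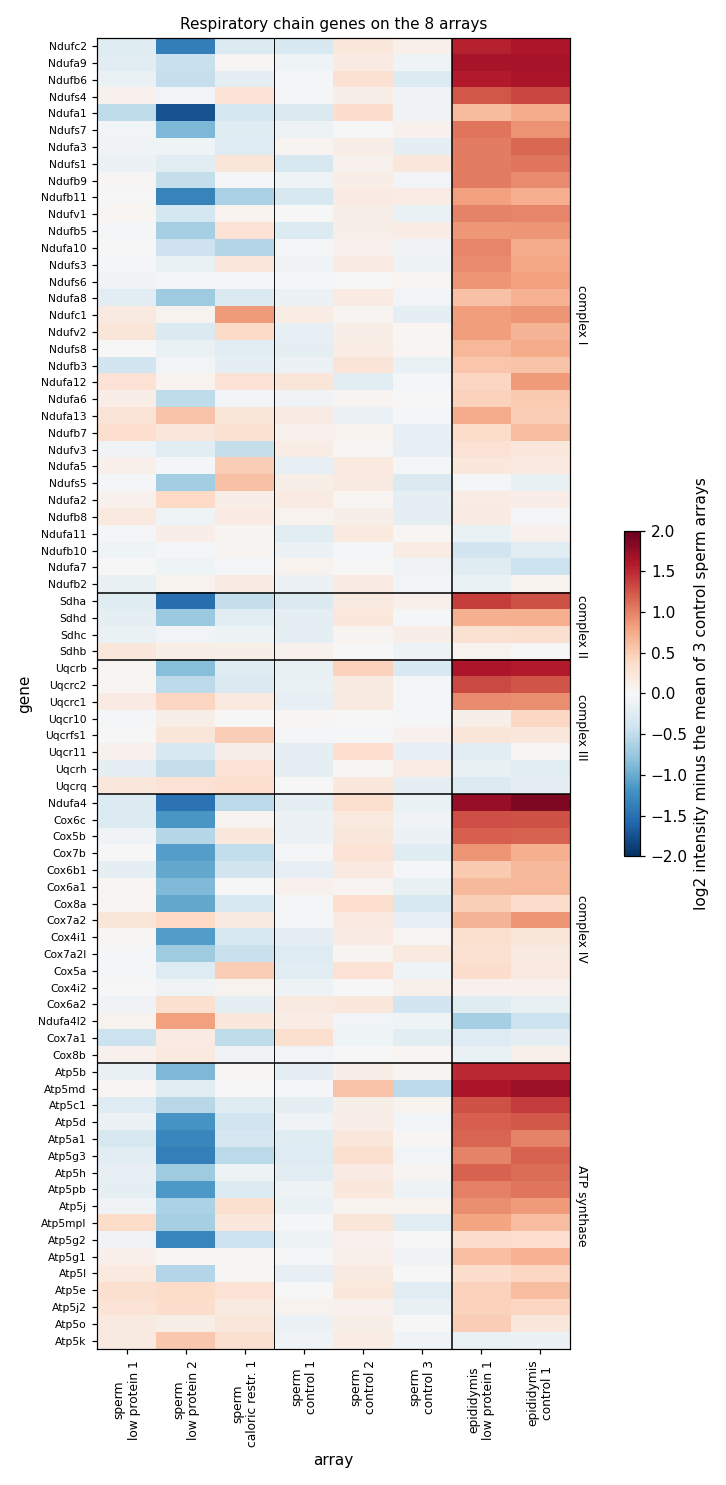
Log2 difference of each gene from its mean over the 3 control sperm arrays, with genes in the order of the complexes and 1 column per array. The epididymis columns are mostly higher than the control sperm columns, and low protein sperm replicate 2 has more low genes than the other sperm arrays, 45 of them below all 3 controls.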

How the data were processed

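The authors deposited 1 table of log2 intensities, with 1 value per probe set for each of 8 Affymetrix arrays. RMA was the method, per the submitters' processing notes; the sources used here give neither its version nor an annotation. That the values are log2 was judged by their range of 1.17 to 14.53. No replicate number or batch is given in the labels, so replicates were numbered within a group only to name them.

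Of 33660 probe sets, 21222 carry 1 gene in the platform annotation, 1541 carry several and 10897 are unnamed. Symbols of 21137 were updated through an annotation of GRCm38, and 85 kept the platform's symbol. For each gene the probe set with the highest mean over the 8 arrays was used. The 30% of genes with the lowest means, up to log2 5.69, were left out. The lowest values on an array are limited by background, and no count or depth stands behind them. The number of arrays limits the precision.

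Tests were two-sided, with lmFit and eBayes of limma 3.58.1 in R 4.3.3 and Benjamini-Hochberg adjustment over 13587 genes. The contrast of sperm with epididymis came from an additive model of tissue and diet on all 8 arrays. There the only caloric restriction array fixes its own diet coefficient and does not inform the tissue difference. Means and SDs of the arrays are not adjusted for diet, so they can differ slightly from the fitted change. Diets were compared over the 6 sperm arrays, and the difference of the diet effects over 8 arrays with a mean per group. Errors are moderated standard errors. The fits were tested on simulated arrays. Alternatives were median centring, quantile normalization, cyclic loess, other filters, the mean over the probe sets of a gene, trended or robust eBayes, and the omission of each array. The genes, the lists and the motifs were chosen with earlier results of these data known. Genes given array by array were those with the largest changes in each comparison, the core subunits, and paralogous isoforms. Which further genes are named was chosen after their values were seen.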

Additional observations from a re-analysis of the deposited data

How the results depend on the processing

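No paired analysis was possible because the labels give no replicate numbers that the groups share. For sperm against epididymis, omission of single arrays gave 26 to 50 called genes of the respiratory chain and medians of -0.92 to -0.69, and quantile normalization and cyclic loess gave medians of -0.34. For low protein against control sperm, omission gave 0 to 35 called genes and medians of -0.36 to -0.01, and cyclic loess a median of 0.06. For caloric restriction against control sperm it gave 0 to 1 called genes and medians of -0.01 to 0.06, and cyclic loess gave 1 called gene and a median of 0.16. For both restricted diets against control sperm it gave 0 to 1 called genes and medians of -0.19 to -0.01, and cyclic loess a median of 0.09. For low protein against caloric restriction sperm it gave 0 to 17 called genes and medians of -0.42 to 0.02, quantile normalization a median of 0.01 and cyclic loess one of -0.04. For the difference of diet effects between sperm and epididymis it gave 0 to 15 called genes and medians of -0.42 to -0.04, and cyclic loess a median of -0.01. The count of 26 came without the low protein epididymis array, and the upper ends of 35, 17 and 15 came without low protein sperm replicate 1, which leaves replicate 2 as the only low protein sperm array. The shares of all genes called in these settings moved too, and they are given above with each count. No such share is given for the count of 50. Where an alternative leaves 1 array in a group, that array is assumed to vary like the others. Among 45 results on single named genes and 672 alternatives, 636 kept direction and call, 16 lost a call, 13 gained one and 7 turned in direction without a call. The last were Sdhb at -0.01 (median centring, without the low protein epididymis array, and with control arrays alone), Sdhc at 0.04 and 0.10, and Uqcrfs1 at 0.08 and 0.12 (quantile normalization and cyclic loess). The cause of these changes was not tested. Levels near the filter are limited by background signal.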
